A study of Rattus norvegicus with 19 samples.

Results

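The fibrillar collagens and the proteins that fold, cross-link and space them were represented by 10 genes: the chains Col1a1, Col1a2, Col3a1, Col5a1 and Col5a2, the chaperone gene Serpinh1, the cross-linking enzyme gene Lox, and the proteoglycan genes Fmod, Dcn and Lum. They were chosen by name, and 16 probe sets annotated to 1 of these symbols alone were found among 31099. The 10 genes were described among 14217 genes, with 1 probe set standing for each gene. Left ventricles of 19 male rats of the Dahl salt-sensitive strain (Harlan SS/Hsd), which becomes hypertensive on salt, were profiled on 1 Affymetrix array per rat. A diet with 6% NaCl began for all 19 rats at 6 weeks of age. The combination group (4 rats) received both enalapril and paricalcitol. The paricalcitol group (4 rats) received paricalcitol, a vitamin D analog that activates the vitamin D receptor, at 200 ng per intraperitoneal injection and 3 injections a week. The enalapril group (3 rats) received enalapril, an inhibitor of angiotensin-converting enzyme, at 90 ug a day from an osmotic pump, together with vehicle injections. That dose had been chosen because it did not lower blood pressure significantly. The vehicle group (4 rats) had injections of the propylene glycol and ethanol solvent. These 4 groups were treated for 4 weeks and taken at 15 weeks of age. The baseline group (4 rats) was untreated and taken at 11 weeks of age, after 5 weeks of salt. No rat without high salt was analysed here, so the baseline hearts stand for hearts the study calls already hypertrophic, and age and time on salt differ together between baseline and the other groups. Animal numbers in the labels run in 1 block per group, so a shared cohort cannot be told apart from its group.

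Fibrillar collagens are made as long procollagen chains, mainly by cardiac fibroblasts, and wind into triple helices in the endoplasmic reticulum. Type I collagen holds the chains of Col1a1 and Col1a2, type III holds that of Col3a1, and type V, with the chains of Col5a1 and Col5a2, takes part in starting fibrils and limiting their diameter. Serpinh1 encodes HSP47, a chaperone that binds the folded helix, and Lox encodes lysyl oxidase, which starts the cross-links between collagen molecules outside the cell. Fmod, Dcn and Lum encode fibromodulin, decorin and lumican, leucine-rich proteoglycans that bind fibrils and shape their spacing. In pressure-overloaded hearts such fibrils make up much of the fibrous tissue between muscle cells.

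Cardiomyocyte markers were bright on every array, and of the 3 atrial markers measured Sln was at 0 on all 19 arrays, while Myl4 ran from 7.19 to 9.10 and Myl7 from 4.11 to 7.28. Fibroblast markers other than collagens (10 of 10 measured) had summed intensities of 11442 to 13517 in the combination, 11986 to 13600 with paricalcitol, 11737 to 13019 with enalapril, 12376 to 14223 with vehicle and 11991 to 14250 at baseline. Red cell markers (5 of 9 measured) summed to 13601 to 24580 in the combination, 14177 to 23431 with paricalcitol, 16637 to 23833 with enalapril, 19073 to 23225 with vehicle and 21159 to 23411 at baseline, so arrays with little red cell RNA occurred in the 3 drug groups. Array medians before normalization lay between 43.57 and 72.56 intensity units, and 15.97% to 18.16% of values per array were below 0. None of the 16 probe sets had a value at or below 0 on any array. Levels below are log2 of quantile-normalized intensity plus 16, and a difference is that of 2 group means on this scale with the standard error (SE) of limma. A gene passed the test when its Benjamini-Hochberg adjusted p over all 14217 genes was under 0.05. A probe set's brightness depends on its probes, so no gene's level is set against another's.

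The baseline hearts had the highest mean of the 5 groups for 8 of the 10 genes, and for all 5 chains, but 0 of the 10 genes passed the test in any of the 10 comparisons. The share of all genes with their highest mean at baseline was not counted. The 8 genes share the same baseline arrays, and some of them varied closely together within groups, so they are not separate results. The order below baseline differed from gene to gene. For Col1a1 it was paricalcitol, vehicle, enalapril and combination, for Serpinh1 it was enalapril, paricalcitol, combination and vehicle, and Fmod was highest with enalapril and lowest in the combination. Of the 40 gaps between neighbours in these orders, 3 exceeded the larger of the 2 groups' SDs: those of Col3a1 between baseline and the combination, of Col5a1 between baseline and enalapril, and of Fmod between enalapril and vehicle. All other neighbours lay within their spread.

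Col1a1 makes the major chain of type I collagen. Its level was 10.85, 10.43, 10.84 and 11.11 in the combination rats, 11.18, 10.85, 12.25 and 10.42 in the paricalcitol rats, 11.01, 10.27 and 11.15 in the enalapril rats, 10.34, 11.09, 10.85 and 11.03 in the vehicle rats, and 12.47, 11.89, 11.67 and 10.96 in the baseline rats. Baseline replicates 1, 2 and 3 lay above every vehicle, enalapril and combination array, replicate 4 lay among them, and paricalcitol replicate 3 was as high as the baseline arrays. Col1a2, the partner chain, had 11.21, 10.79, 11.06 and 11.59 in the combination, 11.31, 10.93, 12.12 and 10.76 with paricalcitol, 11.45, 10.83 and 11.44 with enalapril, 10.98, 11.39, 11.13 and 11.49 with vehicle, and 12.00, 11.78, 11.92 and 11.50 at baseline. Vehicle and enalapril arrays all lay below all baseline arrays for this gene. Col3a1, the type III chain, had 12.22, 12.41, 12.65 and 12.79 in the combination, 12.41, 12.24, 13.24 and 11.96 with paricalcitol, 12.72, 12.06 and 12.67 with enalapril, 11.82, 12.59, 12.19 and 12.50 with vehicle, and 13.28, 12.98, 13.00 and 12.40 at baseline. Here too baseline replicate 4 was the low array of its group and paricalcitol replicate 3 the high one of its own.

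The type V chains were the others. Col5a1 had 8.03, 7.68, 7.87 and 8.56 in the combination, 8.0, 7.16, 8.42 and 8.21 with paricalcitol, 8.33, 7.89 and 8.29 with enalapril, 7.33, 7.97, 7.89 and 7.92 with vehicle, and 8.46, 8.78, 8.69 and 8.14 at baseline. All vehicle arrays lay below all baseline arrays. Col5a2 had 10.22, 9.49, 9.64 and 10.59 in the combination, 10.44, 9.45, 10.66 and 10.39 with paricalcitol, 10.19, 9.89 and 10.38 with enalapril, 9.99, 9.93, 10.09 and 10.32 with vehicle, and 10.67, 10.39, 10.52 and 10.62 at baseline. Vehicle and enalapril arrays again lay below the baseline arrays, which spread little, and the arrays of both groups given paricalcitol spread widely, with paricalcitol replicate 2 and combination replicates 2 and 3 lowest.

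**Figure D1:**
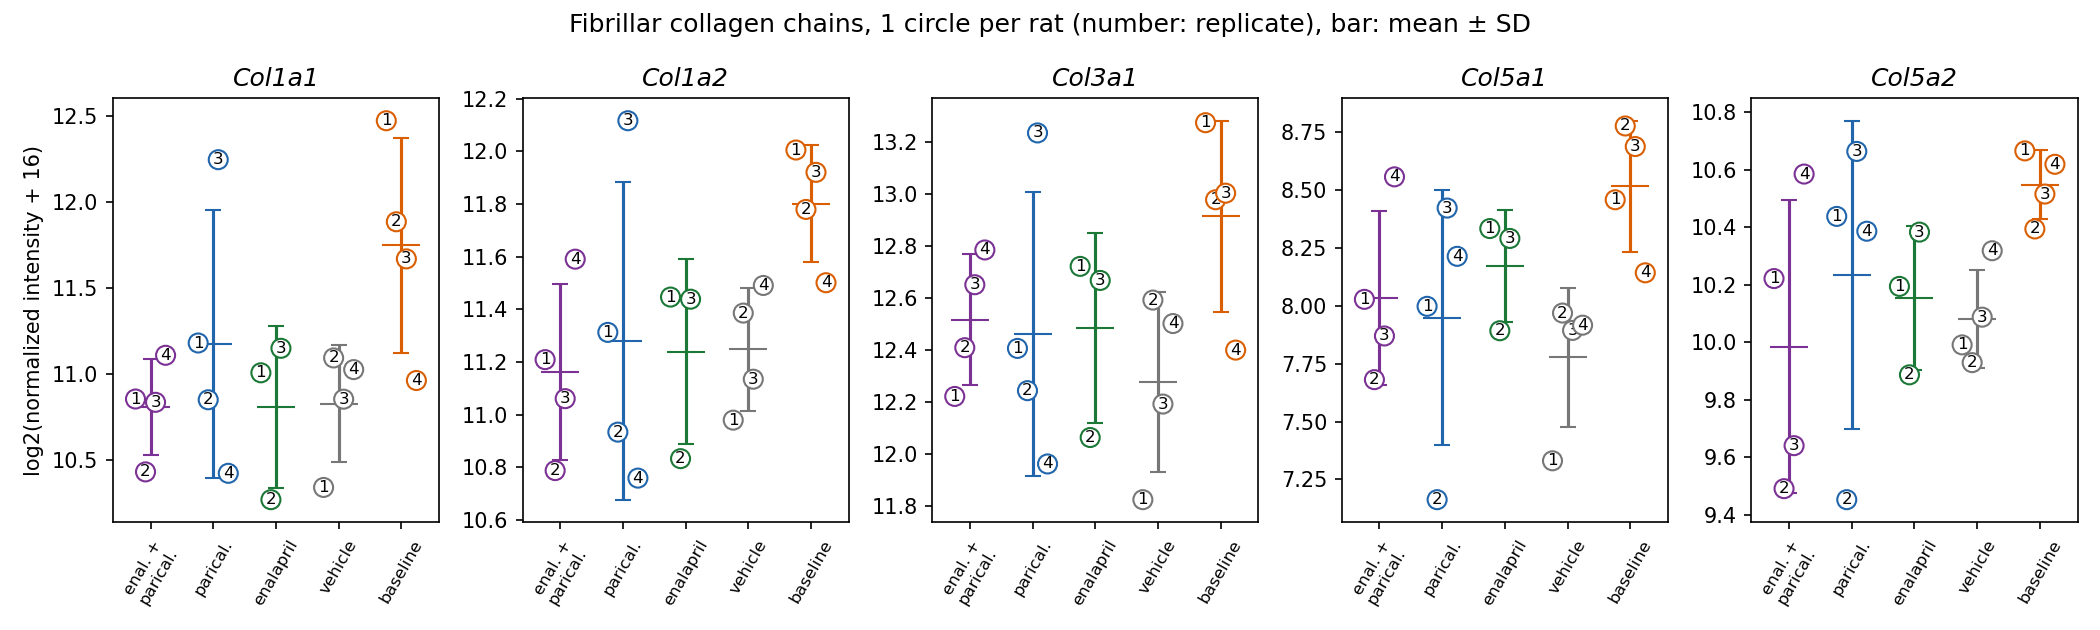
Levels of the 5 fibrillar collagen chains, as log2 of normalized intensity plus 16 on the vertical axis, in each of the 5 groups from combination to baseline. Each numbered circle is 1 rat and the bars give the mean and SD; the baseline mean is the highest in every panel, and paricalcitol replicate 3 stands high for Col1a1 (12.25), Col1a2 (12.12) and Col3a1 (13.24).

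Upstream sequence was matched by symbol in RefSeq's table for GRCr8 for 6 of the 10 genes: Serpinh1, Col5a1, Col1a2, Lum, Col5a2 and Fmod. Col1a1, Col3a1, Lox and Dcn are named only. The 3 shown are those whose 250 bases before the annotated start lie outside the annotated gene: 1 chain of type I collagen, 1 of type V and the proteoglycan Fmod. Searched motifs are in capitals, and each sequence reads 5' to 3' along the gene's strand. Col1a2 lies at chr4:33518307-33518556 on the plus strand, Col5a2 at chr9:55090152-55090401 on the minus strand and Fmod at chr13:48045317-48045566 on the plus strand.
Col1a2: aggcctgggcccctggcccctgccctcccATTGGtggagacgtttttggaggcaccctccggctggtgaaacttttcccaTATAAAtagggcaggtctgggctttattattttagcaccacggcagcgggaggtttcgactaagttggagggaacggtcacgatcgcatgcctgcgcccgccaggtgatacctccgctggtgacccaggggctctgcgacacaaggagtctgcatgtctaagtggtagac
Col5a2: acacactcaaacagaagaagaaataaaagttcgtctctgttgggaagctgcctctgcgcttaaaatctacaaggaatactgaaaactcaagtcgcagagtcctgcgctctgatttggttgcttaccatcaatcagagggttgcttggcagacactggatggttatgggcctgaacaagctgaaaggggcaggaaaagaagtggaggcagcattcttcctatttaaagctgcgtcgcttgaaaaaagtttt
Fmod: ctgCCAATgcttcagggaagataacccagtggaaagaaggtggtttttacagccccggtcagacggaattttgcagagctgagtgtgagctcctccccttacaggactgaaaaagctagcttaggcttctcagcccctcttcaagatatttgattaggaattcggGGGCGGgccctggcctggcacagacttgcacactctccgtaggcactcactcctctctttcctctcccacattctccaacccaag
The motifs, searched on both strands, were the TATA box (TATAAA), the CCAAT box (CCAAT), the GC box (GGGCGG), both Smad-binding forms known as the Smad box (GTCTAGAC) and the CAGA box (AGCCAGACA), and a direct repeat made of 2 copies of AGGTCA spaced by 3 bases. The Col1a2 window held TATAAA starting 170 bases before the annotated start, and CCAAT on the opposite strand at 221. TATAAA occurred in 12.93% of the 33469 windows of this length, CCAAT in 34.02% and GGGCGG in 30.47%. The Fmod window held CCAAT at 247 and GGGCGG at 85, and the Col5a2 window held no match to the 6 motifs. GC content was 58.4% for Col1a2, 44.8% for Col5a2 and 52.8% for Fmod, beside a median of 51.2% over all windows. GTCTAGAC was in 0.173% of windows, AGCCAGACA in 0.314% and the spaced repeat of AGGTCA, the form of element that the vitamin D receptor is known to bind, in 0.0209%. These 3 were in none of the 6 members' windows, which says only that the letters are not there.

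The first comparison asked what 4 more weeks of salt, with vehicle injections, went with. The 5 chains and Serpinh1 had lower means in vehicle hearts than at baseline, by 0.47 to 0.92 on the log2 scale, and Lum differed by -0.44. The groups overlapped for Lum, as they did for Col1a1 and Col3a1. Lox, Fmod and Dcn lay close to their baseline means. In limma's fit 0 of the 10 genes passed, where 0.0844% of all genes did. At an unadjusted p under 0.05, 5 of the 10 were lower and 0 higher, where 9.2% of all genes were past that mark in either direction. For 4 of the 10, Col1a2, Col5a1, Col5a2 and Serpinh1, every vehicle array lay below every baseline array, as was so for 4.02% of all genes. The margin for Col1a2 was narrow, from 11.49 on the highest vehicle array to 11.50 on the lowest baseline array. In the deposited intensities, before quantile normalization, these groups overlapped for Col1a2 and Col5a2. The median difference was -0.51 over the 10 genes and -0.64 over the 5 chains, beside 0 over all genes, of which 48.0% were negative. On an array of a whole ventricle, fewer cells of a type and less RNA per cell cannot be told apart.

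Serpinh1 had the largest difference relative to its error. Its level was 10.20, 10.91, 10.34 and 10.56 in the vehicle rats, against 11.36, 11.12, 11.51 and 10.99 in the baseline rats. The groups did not overlap, and the difference was -0.74 (SE 0.20, 95% interval -1.16 to -0.33, or 0.597 times the baseline level, unadjusted p = 0.00174, adjusted p = 0.186 by limma). Leaving out single arrays of either group moved it between -0.88 and -0.64.

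Among the chains, Col1a1 averaged 10.83 ± 0.34 in vehicle and 11.75 ± 0.62 at baseline (SD, n = 4 each), a difference of -0.92 (SE 0.37, 95% interval -1.70 to -0.14, 0.529 times). Baseline replicate 1 was the highest Col1a1 array and replicate 4 the lowest of that group, and without either one the difference was -0.68 or -1.18. Col5a1 averaged 7.78 ± 0.30 and 8.52 ± 0.28 in the same order, a difference of -0.74 (SE 0.26, unadjusted p = 0.0115, adjusted p = 0.352 by limma). Col3a1 differed by -0.64 (SE 0.27), Col1a2 by -0.55 (SE 0.26) and Col5a2 by -0.47 (SE 0.25, 95% interval -1.0 to 0.07). Lum differed by -0.44 (SE 0.27, 95% interval -1.03 to 0.14). The intervals of Dcn (0.10, from -0.12 to 0.33) and Fmod (0.11, from -0.15 to 0.38) both include 0, while that of Lox (-0.06, from -1.01 to 0.90) spans about 1 log2 unit either way.

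Marker genes also differed in the same comparison, though 0 of them passed the test. Smooth muscle and pericyte markers (10 of 10 measured) summed to 5132 to 5578 in vehicle and 5773 to 7339 at baseline, without overlap, and 8 of the 10 were lower, 4 of them at an unadjusted p under 0.05. Those 4 were Rgs5, Kcnj8, Pdgfrb and Mcam. Not past it were Myh11 (-0.13, SE 0.26), Tagln (-0.20, SE 0.24), Cnn1 (0.20, SE 0.21) and Smtn (0.18, SE 0.22), among others. Of the 10 fibroblast markers 8 were lower (median -0.19), 0 of them at that mark in limma's fit, and the summed ranges given above overlapped. Gsn, which weighs most in these sums (mean level 12.74), was 1 of the 2 with a higher mean (0.21, SE 0.12). The mean centred score, which weighs the 10 markers equally, was -0.06 ± 0.11 in vehicle and 0.16 ± 0.19 at baseline (SD). Its ranges overlapped too. Activated fibroblast markers (6 of 6 measured) summed to 2243 to 3968 in vehicle and 2707 to 5464 at baseline, and all 6 differences were negative. Endothelial markers (7 of 8 measured) summed to 4538 to 4800 in vehicle and 4694 to 5680 at baseline, and 6 of the 7 were lower, 3 of them at that mark: Tek (-0.32, SE 0.09), Emcn (-0.49, SE 0.16) and Tie1 (-0.66, SE 0.21). Of the macrophage markers 7 of 8 were lower (median -0.23), and of the red cell markers 5 of 5 (median -0.31), 0 of either at that mark. The part of these cell types in the collagen differences was not tested.

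**Figure D2:**
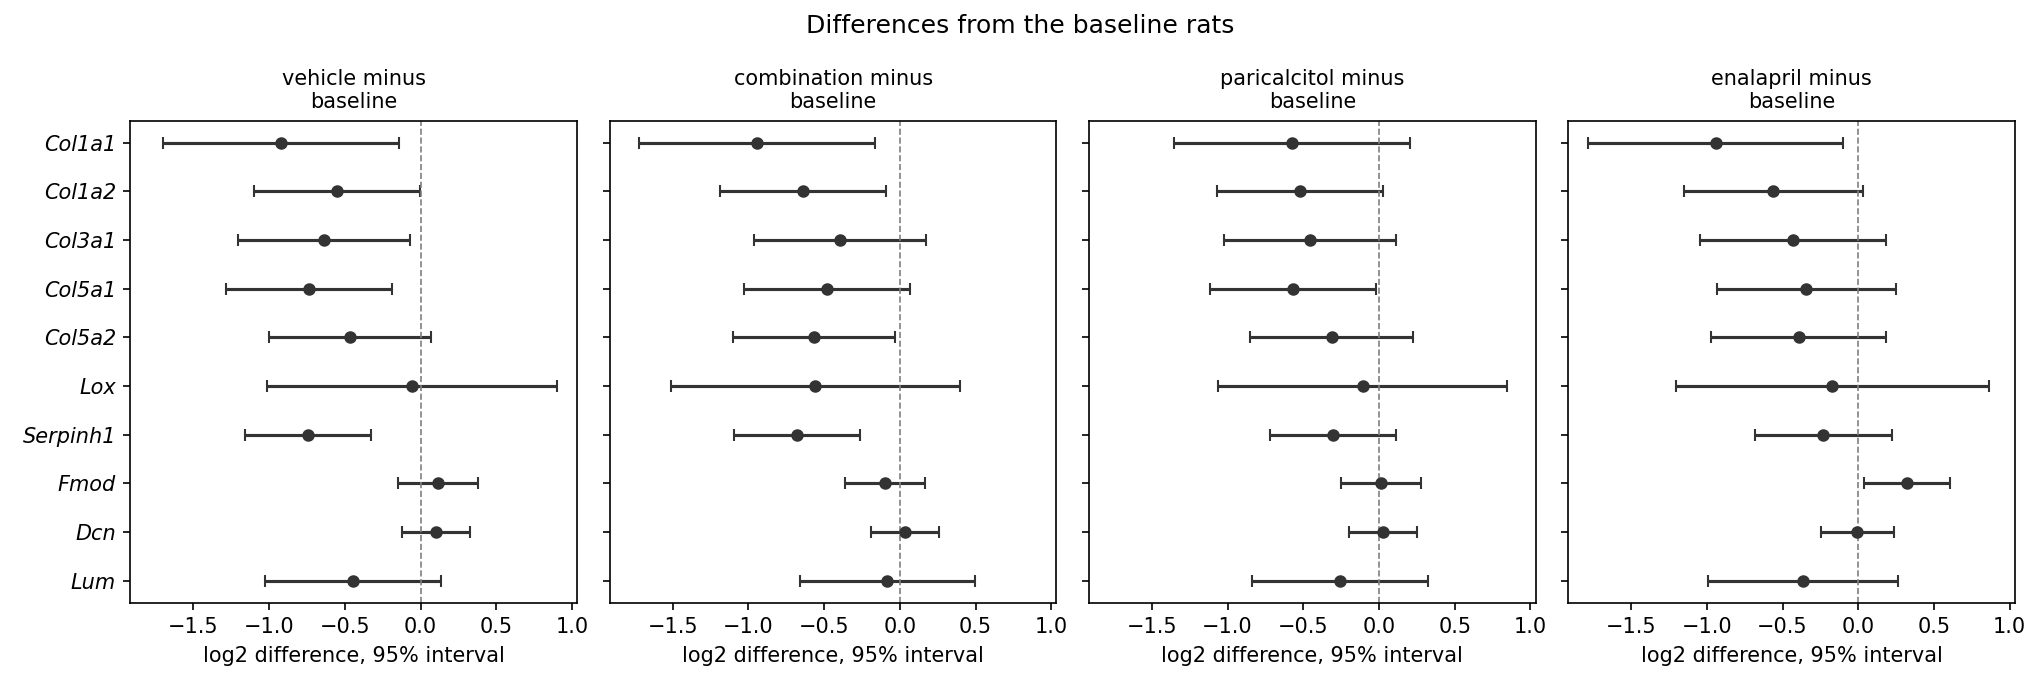
Differences of the 10 genes from the baseline rats on the log2 scale (horizontal axis), with 95% intervals, in 1 panel for each of the 4 later groups; the dashed line is 0. The 5 chains, Serpinh1, Lox and Lum have their points left of 0 in every panel, and the 4 panels share the same baseline arrays.

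Each of the 6 genes that had 2 probe sets gave the same direction for both in vehicle minus baseline. The second Col1a1 probe set, 1370864_at, differed by -0.86 (SE 0.31) without overlap between the groups, beside -0.92 for 1388116_at, which stands for the gene. The second probe set of Col5a2 gave -0.58 (SE 0.20) and that of Col5a1 -0.70 (SE 0.24), both without overlap. That of Col1a2 gave -0.57 (SE 0.25) and that of Lox -0.36 (SE 0.44), both with overlap. For Serpinh1 the brighter probe set has a name ending in _s_at, the manufacturer's mark for probes that can match more than 1 transcript. The other, 1369009_at, was dim (median 45.5 intensity units) and differed by -0.46 (SE 0.25), with overlap. Deviations from the group means of the 2 probe sets of a gene correlated over the 19 arrays at 0.964 for Col1a2, 0.969 for Lox, 0.923 for Col1a1, 0.892 for Col5a2, 0.643 for Col5a1 and 0.535 for Serpinh1, as a description of arrays that both probe sets share.

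**Figure D3:**
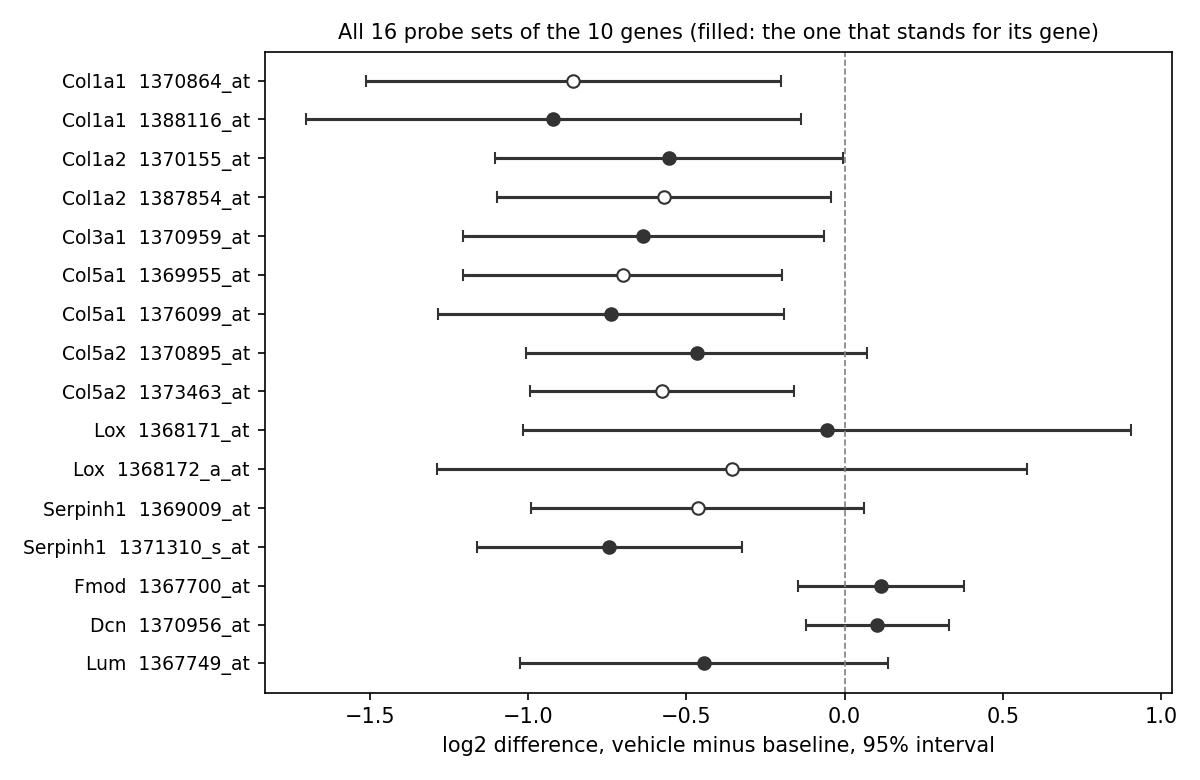
Vehicle minus baseline differences on the log2 scale (horizontal axis) with 95% intervals for each of the 16 probe sets, 1 per line with its gene and probe set name. Filled points stand for the gene in the comparisons; for all 6 genes with 2 probe sets both points lie on the same side of 0.

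The 3 drug groups were also set against baseline, with the same 4 baseline arrays in each comparison. Combination hearts had the lower mean for 9 of the 10 genes (median -0.52), 0 of them passing where 0.162% of all genes did, and 4 lower at an unadjusted p under 0.05 where 10.3% of all genes were past it. These 4 were Col1a1 (-0.94, SE 0.37), Col1a2 (-0.64, SE 0.26), Col5a2 (-0.56, SE 0.25) and Serpinh1 (-0.68, SE 0.20, adjusted p = 0.204). Serpinh1 was the 1 gene of the 10 without overlap, at 10.60, 10.70, 10.76 and 10.21 in the combination rats, all under the lowest baseline rat at 10.99, as was so in the lower direction for 2.76% of all genes. Smooth muscle and pericyte markers summed to 5400 to 6427 in the combination and 5773 to 7339 at baseline, 8 of 10 of them lower, and their part was not tested. Enalapril hearts had the lower mean for 9 of the 10 (median -0.36), with 0 passing where 0.0141% of all genes did. Col1a1 differed by -0.94 (SE 0.40) and Fmod by 0.32 (SE 0.13), both at an unadjusted p under 0.05, where 8.06% of all genes were past it. Col1a2, Col5a2 and Lum had enalapril arrays wholly below the baseline arrays, 3 of the 10 genes, beside 4.64% of all genes. The margins were narrow, for Col5a2 from 10.38 on the highest enalapril array to 10.39 on the lowest baseline array. In the deposited intensities, before quantile normalization, the groups overlapped for all 3 genes, and the second Col1a2 probe set overlapped after it too.

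Paricalcitol hearts had the lower mean than baseline for 8 of the 10 genes (median -0.31), with 0 passing where 0.0281% of all genes did. Col5a1 was the 1 gene at an unadjusted p under 0.05 (-0.57, SE 0.26), where 7.76% of all genes were past it. Replicate 3 of this group carried high chain levels, and without it the median was -0.52, Col1a2 differed by -0.80 and Col3a1 by -0.71. Leaving out an array because it is high lowers the group mean by construction, so these values show only how much that array weighs. That array was also the lowest of its group in red cell markers, with a mean centred marker score of -1.14, beside 0.38, -0.76 and 0.75 on replicates 1, 2 and 4. Over all 19 arrays the mean centred level of the 5 chains and the red cell score correlated at r = 0.124 (Spearman's rho 0.105), and at 0.254 without the 2 arrays farthest from the median red cell score. On deviations from group means the correlation was -0.04.

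The comparisons against vehicle asked what the drugs went with at equal age and time on salt, and they share the vehicle arrays. None of the 5 chains had a difference whose 95% interval excluded 0. Paricalcitol gave a median of 0.16 over the 10 genes and 0 passing, where 0.0141% of all genes did, and 1 at an unadjusted p under 0.05, where 9.64% of all genes were past it. That gene was Serpinh1, at 10.53, 10.65, 11.30 and 11.29 in the paricalcitol rats, against 10.20, 10.91, 10.34 and 10.56 in the vehicle rats. Its groups overlapped, and its difference was 0.44 (SE 0.20, adjusted p = 0.485). It was 0.32 (unadjusted p = 0.135 by limma) without paricalcitol replicate 3, and its unadjusted p was 0.0513 with the replicate number as a block. Of the endothelial markers 7 of 7 had a higher mean (median 0.29, 2 at an unadjusted p under 0.05), with sums of 5265 to 5990 in paricalcitol and 4538 to 4800 in vehicle that did not overlap. Of the smooth muscle and pericyte markers 9 of 10 had a higher mean (median 0.24, 3 at that mark), with sums of 5438 to 6737 and 5132 to 5578 in the same groups. The part of these cells in the Serpinh1 difference was not tested. Without paricalcitol replicate 3 the median over the 10 genes was -0.04. Col1a1 was at 0.35 (95% interval -0.43 to 1.13) with that array and at -0.01 without it.

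Enalapril against vehicle gave a median of 0.08, with 0 of the 10 genes and 0% of all genes passing, and 1 gene at an unadjusted p under 0.05 where 5.64% of all genes were past it. It was again Serpinh1, at 11.06, 10.93 and 11.06 in the enalapril rats, all above the highest vehicle rat at 10.91, with a difference of 0.51 (SE 0.21, 95% interval 0.06 to 0.96, adjusted p = 0.8294), and 4.33% of all genes were higher without overlap. Of the smooth muscle and pericyte markers 9 of 10 had a higher mean (median 0.21, 1 at an unadjusted p under 0.05) and of the macrophage markers 7 of 8 (median 0.27, 0 at that mark). All 6 of the 6 T cell markers were also higher (median 0.44, 2 at that mark), but they are dim, with Cd3d at 0 on 6 arrays and Cd3g on 8. The part of these cells was not tested. The dim second probe set of Serpinh1 differed by 0.11 (SE 0.27) here, and by 0.53 (SE 0.25) in paricalcitol minus vehicle. For the chains the enalapril differences ran from -0.02 for Col1a1 (95% interval -0.86 to 0.82) to 0.39 for Col5a1 (-0.20 to 0.99). The second Col5a1 probe set, 1369955_at, differed by -0.02 (SE 0.26) here, and by -0.21 (SE 0.24) in paricalcitol minus vehicle, where the first gave 0.17 (SE 0.26).

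The combination against vehicle gave a median of -0.05, with 0 of the 10 genes passing where 0.00703% of all genes did, and 0 at an unadjusted p under 0.05 where 7.68% of all genes were past it. Chain differences ran from -0.10 for Col5a2 (95% interval -0.63 to 0.44) to 0.26 for Col5a1 (-0.29 to 0.80). The second Col5a1 probe set again had the opposite sign, at -0.28 (SE 0.24). Fmod was at 6.48, 6.65, 6.65 and 6.53 in the combination rats, against 7.01, 6.66, 6.74 and 6.76 in the vehicle rats, with a difference of -0.21 (SE 0.12). These groups did not overlap, as was so in the lower direction for 1.92% of all genes.

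**Figure D4:**
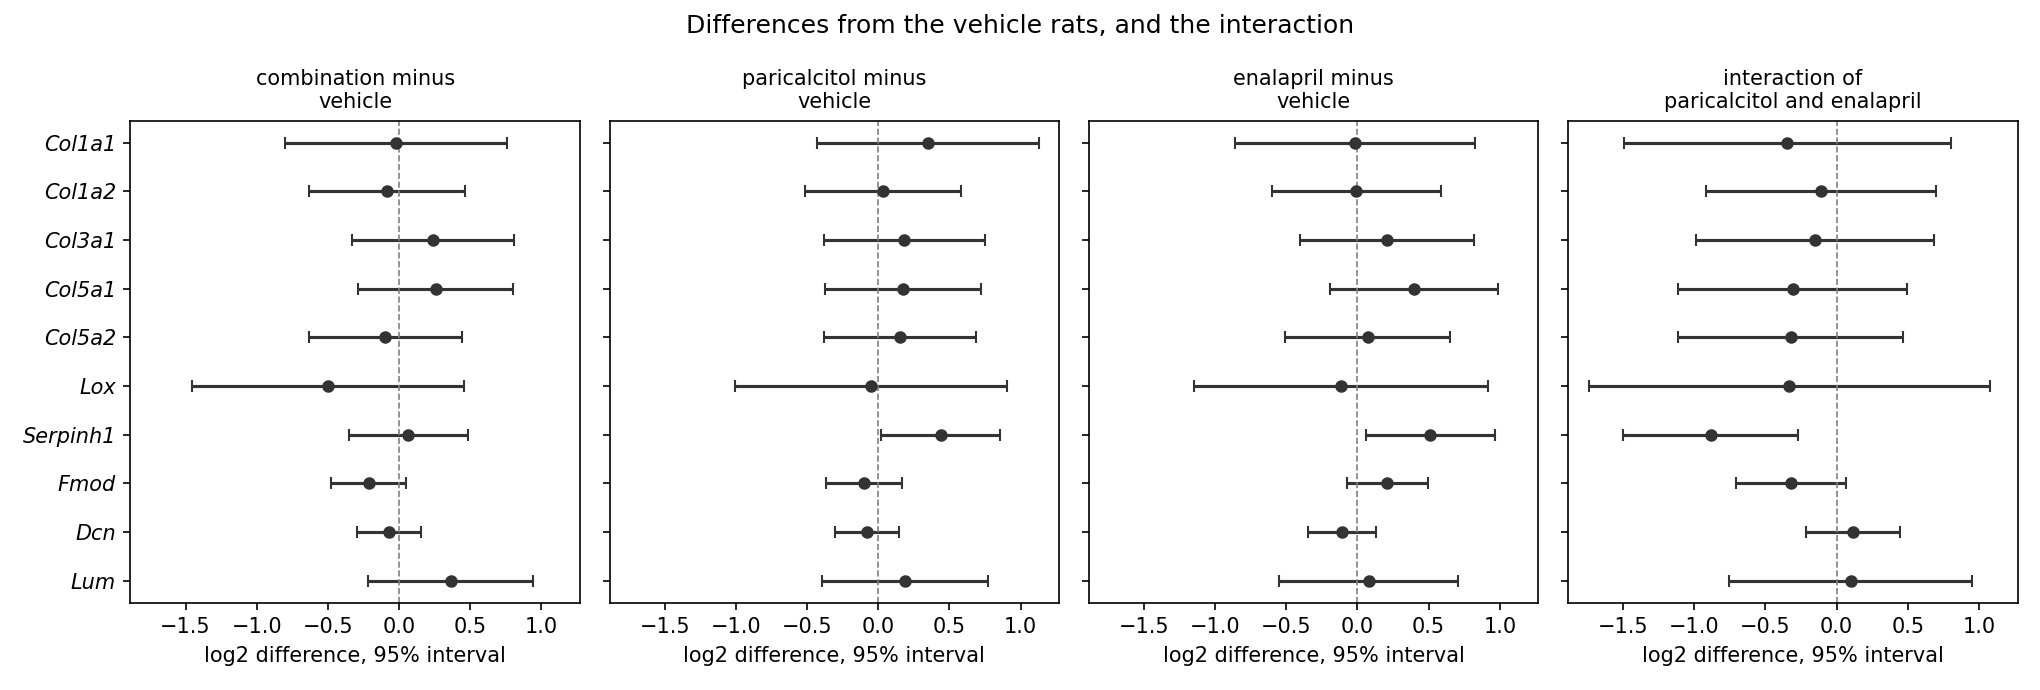
Differences of the 10 genes from the vehicle rats on the log2 scale (horizontal axis) with 95% intervals for the combination, paricalcitol and enalapril, and in the last panel the interaction of both drugs. The interval of Serpinh1 lies right of 0 for each drug alone (0.44 and 0.51) and left of 0 for the interaction (-0.89), and the 3 drug panels share the vehicle arrays.

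Adding paricalcitol to enalapril was read from combination minus enalapril. The median was -0.11, with 0 of the 10 genes and 0% of all genes passing, and 1 gene lower at an unadjusted p under 0.05, where 5.3% of all genes were past it. Fmod was at 6.48, 6.65, 6.65 and 6.53 in the combination rats, against 7.17, 6.85 and 6.97 in the enalapril rats. The groups did not overlap, as was so in the lower direction for 2.17% of all genes, and the difference was -0.42 (SE 0.13, 95% interval -0.71 to -0.14, unadjusted p = 0.00658, adjusted p = 0.904 by limma). Serpinh1 was at 10.60, 10.70, 10.76 and 10.21 against 11.06, 10.93 and 11.06 in the same groups, again without overlap, with a difference of -0.45 (SE 0.21, 95% interval -0.90 to 0.0033). Adding enalapril to paricalcitol, read from combination minus paricalcitol, gave a median of -0.12, with 0 of the 10 genes passing and 0% of all genes, and 0 at an unadjusted p under 0.05, where 9.05% of all genes were past it. Its largest difference was -0.45 for Lox (SE 0.45, 95% interval -1.41 to 0.51).

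The interaction asked whether both drugs together differed from the sum of each alone, as combination minus enalapril minus the difference of paricalcitol and vehicle. With limma 0 of the 10 genes and 0% of all genes passed, and 1 gene had an unadjusted p under 0.05, where 6.94% of all genes did. Serpinh1 was at -0.89 (SE 0.29, 95% interval -1.50 to -0.27, unadjusted p = 0.00768, adjusted p = 0.498). Each drug alone stood above vehicle for this gene (10.94 ± 0.41 with paricalcitol, n = 4, and 11.01 ± 0.08 with enalapril, n = 3, SD), and the combination at 10.57 ± 0.25 (n = 4) stood 0.07 (SE 0.20) above vehicle at 10.50 ± 0.31 (n = 4). Its second probe set gave -0.81 (SE 0.36). Some marker lists had mostly interactions of the same sign. Among them were smooth muscle and pericytes with 8 of 10 (median -0.57, 4 at an unadjusted p under 0.05) and endothelium with 7 of 7 (median -0.18, 0 at that mark). Macrophages had 7 of 8 (median -0.39, 0 at that mark), and T cells, whose markers are dim, 6 of 6 (median -0.44, 3 at that mark). Other lists did not: of the fibroblast markers 4 were negative and 6 positive (median 0.04). Cardiomyocyte markers were 2 negative to 5 positive, red cell markers 2 to 3, and epicardium and mesothelium markers 0 to 4. The part of these cell types in the Serpinh1 value was not tested. The other 9 genes had interactions between -0.35 for Col1a1 and 0.12 for Dcn, and the widest interval was that of Lox, from -1.74 to 1.08.

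Lox, the cross-linking enzyme gene, had no difference past any mark, and its spread lay inside the groups given paricalcitol. Its level was 8.32, 7.05, 7.35 and 8.96 in the combination rats, 9.12, 6.85, 8.80 and 8.70 in the paricalcitol rats, 8.13, 8.08 and 8.71 in the enalapril rats, 8.69, 8.02, 8.46 and 8.52 in the vehicle rats, and 8.61, 8.34, 8.34 and 8.62 in the baseline rats. Paricalcitol replicate 2 and combination replicates 2 and 3 were below every other array. The SD was 0.88 in the combination and 1.03 with paricalcitol, beside 0.35, 0.29 and 0.16 in enalapril, vehicle and baseline. The second Lox probe set was also lowest on these arrays, at 7.07, 6.67 and 6.88. On the same 3 arrays, in the same order, the macrophage marker score was -0.80, -0.69 and -0.25, that of activated fibroblasts -0.35, -0.95 and -0.53, and that of red cells -0.76, -1.13 and -0.98. Paricalcitol replicate 3, with a red cell score of -1.14 and a macrophage score of 0.44, had Lox at 8.80. The part of these cells in the Lox values was not tested.

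Dcn, which binds collagen and growth factors, had the narrowest span of group means of the 10 genes. It had 12.96, 13.02, 12.99 and 13.39 in the combination, 13.05, 12.93, 13.28 and 13.08 with paricalcitol, 12.99, 13.01 and 13.16 with enalapril, 13.27, 13.07, 13.10 and 13.20 with vehicle, and 13.03, 12.83, 13.16 and 13.21 at baseline. All groups overlapped, and the 5 means spanned 0.11, beside 0.94 for Col1a1. Lum had 10.50, 11.03, 10.99 and 11.28 in the combination, 10.58, 10.64, 11.73 and 10.13 with paricalcitol, 10.74, 10.51 and 10.75 with enalapril, 10.27, 10.73, 10.52 and 10.83 with vehicle, and 11.46, 10.79, 11.08 and 10.78 at baseline. Paricalcitol replicate 3 was its highest array, as for Col1a2. Fmod had 6.73, 6.83, 6.43 and 6.77 with paricalcitol and 6.77, 6.43, 6.96 and 6.54 at baseline. Paricalcitol replicate 3 and baseline replicate 2 were its lowest arrays, just under the combination arrays, and its highest was an enalapril array.

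**Figure D5:**
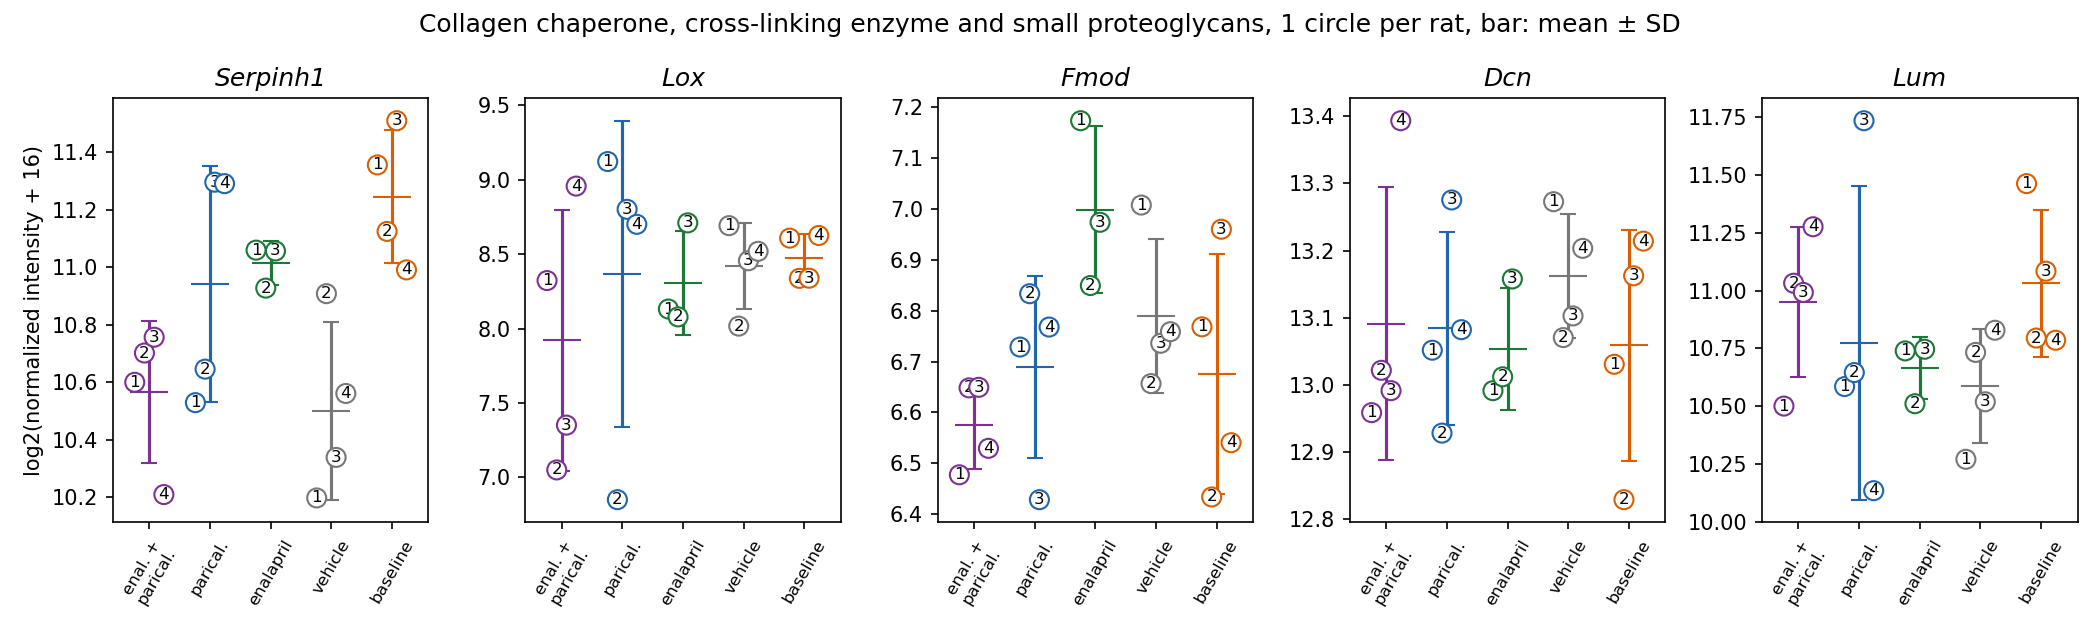
Levels of Serpinh1, Lox, Fmod, Dcn and Lum as log2 of normalized intensity plus 16 (vertical axis) in the 5 groups. Each numbered circle is 1 rat and the bars give the mean and SD; Serpinh1 has its lowest means in the combination and vehicle rats, and Lox is low on paricalcitol replicate 2 (6.85) and combination replicates 2 and 3 (7.05 and 7.35).

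Within groups the genes differed in how closely they varied with Col1a1. Correlations of deviations from group means were taken over the 19 arrays for 12 relations, with permutation within groups (100000 resamples, two-sided) and Benjamini-Hochberg adjustment over the 12. Col1a1 correlated with Col3a1 at r = 0.937 (rho 0.921, both permutation p = 7e-05, adjusted p = 0.00042), with Col1a2 at r = 0.914 (rho 0.893, permutation p = 3e-05 and 4e-05, adjusted 0.00036 and 0.00042) and with Lum at r = 0.813 (rho 0.744, permutation p = 0.00096 and 0.00187, adjusted 0.00384 and 0.00748). Without the 2 arrays farthest from the median Col1a1 deviation, paricalcitol replicate 3 and baseline replicate 4, these were 0.893, 0.886 and 0.725. With Col5a1 it was r = 0.585 (rho 0.540, permutation p = 0.0417 and 0.036, adjusted 0.125 and 0.108) and with Col5a2 r = 0.457 (rho 0.481, permutation p = 0.115 and 0.0491, adjusted 0.276 and 0.118). The others had r between -0.28 for Fmod and 0.30 for Serpinh1, each with an adjusted permutation p of at least 0.468 for r and for rho, and that of Serpinh1 was 0.04 without the 2 arrays. Neighbours on a chromosome in the rat annotation did not stand out. Col3a1 and Col5a2 lie side by side on chromosome 9 and correlated at r = 0.357 (rho 0.323, adjusted permutation p = 0.415 and 0.414). Dcn and Lum lie side by side on chromosome 7 and correlated at r = 0.411 (rho 0.268, adjusted permutation p = 0.282 and 0.468), or 0.06 without combination replicate 4 and paricalcitol replicate 3. All genes of an array come from 1 piece of tissue and 1 hybridization.

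The genes most like the mean of the 5 chains were sought among 7099 brighter genes outside the 10, on the same deviations over 19 arrays, as a description. The 8 with the highest r were Igfbp7 (0.923), Igf1 (0.850), Igsf10 (0.847), Itgbl1 (0.846), Ptgfrn (0.842), C18h18orf32 (0.837), Bdh1 (0.826) and Gng12 (0.825). The 4 with the lowest were Mrpl52 (-0.88), Mapk12 (-0.79), Casz1 (-0.78) and Tesc (-0.77). The middle of all 7099 genes was near 0, and 1% of them lay above 0.643. Measured the same way, Lum had 0.752, Lox 0.539, Dcn 0.378, Serpinh1 0.306 and Fmod -0.32. Of the 8 genes, Igf1 differed between vehicle and baseline by -0.82 (SE 0.26, adjusted p = 0.296 by limma), and Igfbp7 differed by -0.05 (SE 0.08).

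Other genes of collagen production were read from 7 lists, of whose 67 genes 55 were measured. In vehicle minus baseline 0 of the 55 passed, 6 were lower and 1 higher at an unadjusted p under 0.05, and 31 differences were negative, with a median of -0.05, beside 9.2% of all genes past that mark and 48.0% negative. Of 18 genes that modify and fold chains, 14 were lower (median -0.11), among them Plod1, a lysyl hydroxylase, at -0.25 (SE 0.09), and Colgalt2, a collagen galactosyltransferase, at -0.41 (SE 0.14). All 3 other lysyl oxidases measured were lower (median -0.43), with Loxl2 at -0.47 (SE 0.30) and Loxl1 at -0.43 (SE 0.36). Both genes of propeptide removal were lower within their error, the proteinase Bmp1 at -0.17 (SE 0.14) and its enhancer Pcolce at -0.25 (SE 0.35). Of the 6 other fibrillar chains 4 were higher and 2 lower (median 0.09), 0 of them at an unadjusted p under 0.05. The 2 lower were Col5a3 at -1.25 (SE 0.70) and Col24a1 at -0.26 (SE 0.23), both dim. Col5a3 had 6.78, 6.72, 4 and 4.53 at baseline and 4.075, 4, 4 and 4.95 in vehicle, where 4 is the floor of the scale.

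Among the genes of uptake and breakdown, Mmp14, a membrane-bound collagenase, had 8.64, 8.45, 8.65 and 8.43 in the vehicle rats, against 9.68, 9.33, 9.03 and 9.21 in the baseline rats. The groups did not overlap, as was so in the lower direction for 4.02% of all genes, and the difference was -0.77 (SE 0.16, adjusted p = 0.077 by limma). Mmp2, a gelatinase that Mmp14 activates, differed by -0.29 (SE 0.13), while the list as a whole was split 4 to 4. The small proteoglycans outside the 10 ran the other way, with 6 of 7 higher (median 0.14), 1 of them at an unadjusted p under 0.05. Ogn, osteoglycin, had 11.39, 11.52, 11.50 and 11.49 in vehicle, against 11.35, 11.01, 11.05 and 10.91 at baseline, a difference of 0.40 (SE 0.16) without overlap. Omd, osteomodulin, differed by 0.54 (SE 0.27), also without overlap. Both were named for having the smallest p-values of their list, and the share of all genes higher without overlap was not counted here. Of the 11 fibril-associated genes, Fn1, fibronectin, differed by -0.67 (SE 0.35) without overlap.

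Sparc, a secreted protein that binds collagen, was the 1 gene of the 55 that passed in any of the 10 comparisons. It fell in the combination rats, at 11.42, 11.67, 11.79 and 11.63, against 12.33, 12.32, 12.28 and 12.21 in the baseline rats, a difference of -0.66 (SE 0.08, adjusted p = 0.00441 by limma). It had 11.93, 11.97, 11.93 and 12.00 in the vehicle rats, a difference from baseline of -0.32 (SE 0.08, adjusted p = 0.186), and the combination differed from vehicle by -0.33 (SE 0.08, adjusted p = 0.331), without overlap in each case. Of all genes, 2.76% were lower without overlap in combination minus baseline, 4.02% in vehicle minus baseline and 1.92% in combination minus vehicle. Paricalcitol and enalapril rats also lay below baseline without overlap, with differences of -0.42 (SE 0.08, adjusted p = 0.133) and -0.44 (SE 0.09, adjusted p = 0.171). For enalapril 4.64% of all genes did so, and for paricalcitol the share was not counted. In the same comparison of combination with baseline 36 of the 55 genes were lower (median -0.16), 10 of them and 1 higher gene at an unadjusted p under 0.05, beside 10.3% of all genes past that mark and 46.8% negative.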

How the data were processed

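Left ventricular RNA of 19 rats was hybridized to 1 Affymetrix array each, from 5 ug of total RNA with an integrity number above 9, per the labels' protocols. The authors deposited 1 linear intensity for every probe set on every array. The method, from background correction to scaling, is not given in the sources used here. Values below 0 occur on every array, as a subtracted background would give. Quantile normalization over all arrays was applied here, negative values were replaced by 0, and 16 was added before taking log2, so a fold understates the change of dim genes. Of 31099 probe sets, 20826 named 1 gene, 436 several, 9780 none and 57 were controls. The probe set with the highest mean stood for each of 14217 genes, with no filter on low values. Group means over all 19 arrays were fitted with limma 3.58.1 (R 4.3.3, trended empirical Bayes, no block), in 10 comparisons. Correlations and figures used Python 3.11.15 with scipy 1.17.1 and matplotlib 3.10.9. The procedure was tested on simulated data.

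The 10 genes, the other lists and the tests were chosen with earlier results of these data known, and some marker lists were used in earlier work on them. Other genes are named where they passed the threshold, where they had 1 of the 2 smallest p-values per list in vehicle minus baseline, or where they were among the 8 most and 4 least like genes. No permutation p was given for the chain score against the red cell score, although one had been planned. Replicates are separate rats by their labels. Arrays of equal replicate number deviated together (correlations 0.315 to 0.555 over the 4 numbers, in 7108 brighter genes) in 1 of 10 pairs of groups, paricalcitol and combination. The number of arrays limits the precision. The alternatives tried were other normalizations, pseudocounts, filters, probe set rules, models and single omissions.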

Additional observations from a re-analysis of the deposited data

Results flagged for a closer look

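In a pair of cases 1 array stood apart from its group. Of 40 groups of 4 arrays, 2 held a highest or lowest array whose gap to the others exceeded Dixon's critical value at the 95% level, and chance flags about 1 in 20 groups. Col5a1 on vehicle replicate 1 was at 7.33, below the other vehicle arrays at 7.89 to 7.97, and without that array the vehicle minus baseline difference was -0.59. Dcn on combination replicate 4 was at 13.39, above the other combination arrays at 12.96 to 13.02.

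Serpinh1 and Fmod were flagged for their pattern across the drug groups. All arrays given 1 drug lay on 1 side of the reference group's mean without the other drug, and on the opposite side with it. This rule takes no account of the spread of the reference group, and its share over all genes was not counted. For Serpinh1 the interaction of both drugs was -0.89 (adjusted p = 0.498 by limma), and its value was between -1.02 and -0.71 under the alternatives run. Paricalcitol went with 0.44 without enalapril and with -0.45 on top of it, and enalapril with 0.51 without paricalcitol and with -0.37 on top of it. For Fmod the effect of enalapril went opposite ways without and with paricalcitol, at 0.21 and -0.11, with an interaction of -0.32 (SE 0.18, adjusted p = 0.777 by limma). Neither difference passed the test.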

How the results depend on the processing

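Of 2130 values of single genes under 13 alternative settings and 19 omissions of single arrays, 111 changed sign, and 1 passed the threshold. That was Serpinh1 in vehicle minus baseline with array weights (-0.75, adjusted p = 0.0378), which makes the count there 1 of 10 rather than 0. In vehicle minus baseline the 5 chains, Serpinh1 and Lum kept a negative sign throughout and Dcn a positive one. Lox changed sign in 3 alternatives, and Fmod was at -0.14 in the deposited values without equalisation. Those values shift the median of all genes by -0.20 in vehicle minus baseline and by 0.17 in enalapril minus vehicle, and the medians over the 10 genes were then -0.68 and 0.26. Apart from that setting, the vehicle minus baseline median was weakest with each array centred on its median, at -0.36, and it ran from -0.59 to -0.45 when single arrays were left out. With the replicate block, 0 of the 10 genes passed in every comparison and Serpinh1 in vehicle minus baseline stayed at -0.74 (adjusted p = 0.209 by limma), so the block changed no call. The paricalcitol minus vehicle median ran from -0.04 to 0.34 over the single omissions. With 3 or 4 arrays a group, intervals stayed wide, and that of Lox in vehicle minus baseline ran from -1.01 to 0.90.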
